A study of Mus musculus with 4 samples.

Results

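The mitosis genes described here are a set of 41 genes of the kinetochore, the spindle, the mitotic kinases and cytokinesis, listed by symbol. They were followed in cultured mouse osteoblasts, the cells that make bone, on 4 Affymetrix arrays. Of the 41, 40 had a probe set annotated with a single gene symbol, and Ccnb1, the gene of cyclin B1, had none and is not analysed here. All 40 passed a filter on brightness, which 11661 of 18193 genes on the arrays passed. The filter kept genes whose geometric mean intensity over the arrays reached 66.2, the median of the probe sets that are not controls.

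The labels give 1 array to each of 4 groups, namely a control without insulin, labelled 0 h, and cells exposed to insulin (10 nM) for 6, 12 or 24 h. All groups carry the same genotype. The growth protocol gives it as cells without the IGF-1 receptor, and the genotype entry as null for IGF-1, its ligand, and the sources used here do not settle which is meant. By the protocols the cells were confluent and were starved of serum before insulin, whether this holds for the 0 h array is not stated apart, and the sources used here give no strain, no age and no origin of the cells. With 1 array per group there is no replicate, no test and no error of a difference, and every difference below is between single arrays. Insulin and hours in culture cannot be told apart, since the control has 0 h only.

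Mitotic genes are a textbook case of transcripts that are made together. Their messages are scarce in resting and early cycling cells and accumulate in G2 and M phase, so that their summed level in a culture follows the share of cells about to divide. Many of their promoters carry a cell cycle homology region, with the letters TTTGAA close to the start of transcription, and upstream CCAAT boxes bound by the factor NF-Y. The DREAM complex holds such promoters silent in resting cells, and B-MYB and FOXM1 activate them later. In bone, osteoblast precursors divide, and division slows as the cells mature into matrix-producing osteoblasts.

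The promoters of the 6 members with the deepest drop at 12 h that have a window in the RefSeq table are shown because these members move together on the arrays. Each window runs 5′ to 3′ from 250 bases before to 50 bases after the gene's start in build GRCm38.p6. Capitals mark TTTGAA, its variant TTCGAA and CCAAT on either strand, where TTCAAA and ATTGG are the reverse complements. Cenpf lies at chr1:189688037-189688336 on the minus strand, Bub1 at chr2:127831810-127832109 on the minus strand and Anln at chr9:22389157-22389456 on the minus strand. Mki67 lies at chr7:135716330-135716629 on the minus strand, Birc5 at chr11:117848987-117849286 on the plus strand and Plk1 at chr7:122159185-122159484 on the plus strand.
Cenpf: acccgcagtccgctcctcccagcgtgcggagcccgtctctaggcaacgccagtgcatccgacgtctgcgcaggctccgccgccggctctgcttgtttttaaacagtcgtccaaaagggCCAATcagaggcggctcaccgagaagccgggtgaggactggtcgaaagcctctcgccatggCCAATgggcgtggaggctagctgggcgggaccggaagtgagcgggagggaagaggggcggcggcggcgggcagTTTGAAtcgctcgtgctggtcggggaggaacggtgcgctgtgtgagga
Bub1: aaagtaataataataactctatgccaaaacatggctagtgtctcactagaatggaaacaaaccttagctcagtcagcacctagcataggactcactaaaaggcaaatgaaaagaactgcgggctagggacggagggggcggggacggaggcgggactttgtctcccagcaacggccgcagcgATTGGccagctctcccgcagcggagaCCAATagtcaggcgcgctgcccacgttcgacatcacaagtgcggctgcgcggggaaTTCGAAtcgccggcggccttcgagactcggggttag
Anln: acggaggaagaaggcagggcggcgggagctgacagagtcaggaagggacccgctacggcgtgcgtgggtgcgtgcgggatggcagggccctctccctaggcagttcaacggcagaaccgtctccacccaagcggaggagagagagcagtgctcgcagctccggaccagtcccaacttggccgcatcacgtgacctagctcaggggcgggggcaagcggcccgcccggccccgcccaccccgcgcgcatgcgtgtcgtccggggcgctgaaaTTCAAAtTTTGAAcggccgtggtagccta
Mki67: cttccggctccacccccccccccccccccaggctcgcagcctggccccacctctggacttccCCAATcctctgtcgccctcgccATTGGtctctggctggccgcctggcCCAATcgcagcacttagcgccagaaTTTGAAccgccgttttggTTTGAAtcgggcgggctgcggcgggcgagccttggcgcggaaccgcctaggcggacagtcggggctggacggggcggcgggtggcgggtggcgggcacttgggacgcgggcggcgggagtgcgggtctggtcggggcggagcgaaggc
Birc5: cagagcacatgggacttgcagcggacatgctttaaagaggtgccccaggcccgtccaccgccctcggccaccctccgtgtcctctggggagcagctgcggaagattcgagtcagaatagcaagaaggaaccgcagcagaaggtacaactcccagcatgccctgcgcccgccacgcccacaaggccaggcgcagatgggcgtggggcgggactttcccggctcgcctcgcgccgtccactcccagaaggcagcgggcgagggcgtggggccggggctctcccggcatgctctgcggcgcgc
Plk1: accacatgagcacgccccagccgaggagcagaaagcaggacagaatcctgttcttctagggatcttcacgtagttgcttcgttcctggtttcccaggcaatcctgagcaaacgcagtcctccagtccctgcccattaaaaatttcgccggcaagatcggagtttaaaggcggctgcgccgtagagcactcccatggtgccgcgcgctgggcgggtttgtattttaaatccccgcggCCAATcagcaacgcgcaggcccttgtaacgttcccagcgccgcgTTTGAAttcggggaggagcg

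In these windows the letters stood at various distances from the start. Cenpf had TTTGAA beginning 3 bases after the start and CCAAT at -132 and -71. Plk1 had TTTGAA at 31 and CCAAT at -14. Mki67 had TTTGAA at -116 and -98 and CCAAT letters on either strand at -188, -166 and -141. Anln had TTTGAA letters on either strand at 22 and 29 and no CCAAT, while Bub1 had the variant TTCGAA at 15 and CCAAT letters at -68 and -42. The Birc5 window held none of these letters. A match describes the letters and does not show a bound site, and a window without a match says only that the letters are not in it.

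Of the 41 members 35 had a window, and because a gene can have several starts there were 37 windows. TTTGAA was present in 28 of the 37 windows, which is 75.7%, against 17.9% of all 32851 windows and 11.8% of the 12077 windows of genes above the brightness filter. CCAAT was present in 30 of the 37, which is 81.1%, against 37.4% of all windows. Both were present in 25 of 37 windows, or 67.6%, against 6.95% of all windows. TTCGAA was in 3 of the 37 and in 1.56% of all. Of 36 matches to TTTGAA in member windows 27 began within 50 bases of the start, in 24 members, and of 71 matches to CCAAT 54 began in the 150 bases upstream of it. Positions were counted in member windows only, so these counts have no share of all windows beside them. Sites in the overlapping windows of Prc1 and of Ect2 were counted in each window. The E2F-type letters TTTGGCGC were in 0 and TTTCGCGC in 1 of the 37 windows, against 0.514% and 0.323% of all. Among other mitosis genes TTTGAA was in 30 of 78 windows (38.5%) and CCAAT in 50 of 78 (64.1%), both between the members' shares and those of all windows. Among DNA replication genes TTTGAA was in 4 of 39 windows, CCAAT in 22 and the 2 E2F-type words in 6 each. The members were chosen with earlier results known, and all measured ones dropped at 12 h. A split among them by TTTGAA therefore cannot show whether the letters go with the drop. The 26 measured members with TTTGAA had a median log2 difference between 12 h and the mean of 6 and 24 h of -0.47 (range -1.06 to -0.31). For the 8 without TTTGAA the median was -0.52 (range -0.86 to -0.33). The lowest of these 8 was Bub1, whose window holds the variant TTCGAA.

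Every one of the 40 measured mitosis genes was lower at 12 h than at both 6 and 24 h of insulin. The genes were a median of 1.44-fold lower at 12 h than at 6 h and a median of 1.36-fold higher at 24 h than at 12 h. On the log2 scale of intensity the median difference of 12 h minus 6 h was -0.52 (range -0.95 to -0.29), and that of 24 h minus 12 h was 0.45 (range 0.23 to 1.19). Over all 11661 genes above the filter the same medians were 0.03 and -0.03. A drop at 12 h below both neighbours, by any amount, was seen for 24.4% of all those genes, against 40 of 40 members. The members and thresholds were chosen with earlier results of these data known. The counts here and below are therefore a description and not an independent check. None of the members was lowest at 6 h or at 24 h among the insulin arrays, where 38.8% and 36.7% of all genes were lowest.

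At a threshold of values at least 25% higher at both 6 and 24 h than at 12 h, 31 of 40 members were called, against 0.840% of all genes, which is 98 genes. The members therefore made up 31 of those 98. Ranked by 12 h minus the mean of 6 and 24 h, the members held places 1 to 195 among 11661 genes. Cenpf was first and Ttk last of them, and 33 of the 100 deepest drops were members. Both differences contain the same 12 h array. In RNA from a whole culture, fewer cells in mitosis and less of these messages per cell cannot be told apart.

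**Figure D1:**
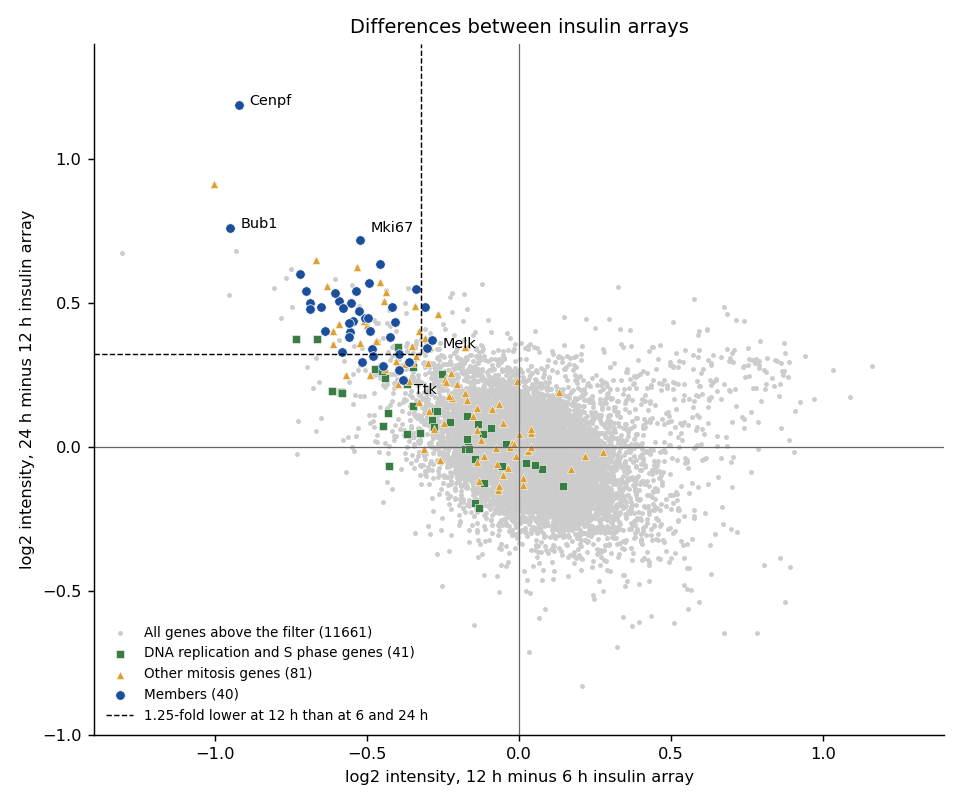
Log2 intensity of 12 h minus 6 h (horizontal axis) against 24 h minus 12 h (vertical axis) for each gene above the brightness filter, from 1 array per time, with members in blue and 2 other gene lists in orange and green. All 40 members lie to the upper left of the origin and 31 of them lie beyond the dashed corner that marks the 25% threshold, with Cenpf and Bub1 farthest out. The axes share the 12 h array.

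Kinetochore and checkpoint genes included Cenpf and Bub1, which had the deepest drops among the members. All 8 were lower at 12 h, with a median 12 h minus 6 h of -0.53 log2. Cenpf, a large protein of the outer kinetochore that builds up in G2, had intensities of 163, 173, 91.0 and 207 at 0, 6, 12 and 24 h. It was 1.90-fold lower at 12 h than at 6 h and 2.28-fold higher at 24 h than at 12 h, and on this probe set its 24 h value was the highest of all 4 arrays. A pair of dimmer Cenpf probe sets, below the filter, were also lowest at 12 h but did not exceed 0 h at 24 h, with 55.6, 64.9, 39.8 and 53.9 on one and 18.4, 17.0, 13.9 and 17.1 on the other. The checkpoint kinase gene Bub1 had 425, 267, 138 and 234, which is 1.94-fold lower at 12 h than at 6 h. Its relative Bub1b, which encodes the checkpoint protein BubR1, had 414, 243, 166 and 218. Cenpe, the kinesin that carries chromosomes to the spindle equator, had 461, 218, 150.3 and 219, so that 24 h matched 6 h.

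The remaining 4 kinetochore members had shallower drops. Ttk, the kinase Mps1 that starts checkpoint signalling, had 208, 133, 102 and 120.2 and a 12 h minus 6 h of -0.38 log2. Cenpa, the histone H3 variant that marks centromeres, had 639, 338, 236 and 290.2. Ndc80 and Nuf2 encode partners in the complex that grips microtubules. Ndc80 had 238, 109.9, 85.5 and 105, and Nuf2 had 177, 146, 109 and 153. In log2 from 0 h they stood apart, with -1.11 for Ndc80 and -0.28 for Nuf2 at 6 h, while their 12 h drops were alike.

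Spindle motors and microtubule binders were lower at 12 h in 6 of 6, and 5 of 6 passed the 25% threshold on both sides. Kif11, the motor Eg5 that pushes spindle poles apart, had intensities of 233, 95.6, 72.0 and 97.3 at 0, 6, 12 and 24 h. Kif4, a chromosome-bound kinesin, had 168, 164, 124 and 155, and Kif2c, a depolymerising kinesin at centromeres, had 369, 251, 203 and 258. Kif2c was the member of this group that missed the size, at 1.23-fold lower than 6 h. Tpx2, which activates Aurora A on the spindle, had 429, 292, 199 and 282. The spindle-bundling protein gene Nusap1 had 429, 269, 191 and 283, and Hmmr, the hyaluronan-mediated motility receptor that also binds spindle microtubules, had 446, 336, 236 and 322. For Nusap1, Kif2c and Kif11 the 24 h value was slightly above the 6 h value.

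Cyclin and kinase genes followed the same course, 12 of 12 measured, and 9 passed the 25% threshold on both sides. Ccna2, cyclin A2, had intensities of 1118, 551, 365 and 519 at 0, 6, 12 and 24 h, and Ccnb2, cyclin B2, had 530.3, 505, 321 and 449. Cdk1, the kinase both cyclins activate, had 1472, 917, 671 and 816, and its small binding partner Cks2 had 2956, 1647, 1251 and 1508. The catalytic partner and its binding protein thus had shallower drops, 1.37 and 1.32-fold against 6 h, than cyclin B2 at 1.57-fold and cyclin A2 at 1.51-fold. Plk1, the Polo-like kinase of mitotic entry, had 478, 374, 232 and 329, which is 1.61-fold lower at 12 h than at 6 h. Aurka, the centrosomal Aurora kinase, had 434, 369.5, 247 and 345, and Nek2, a kinase that separates centrosomes, had 175, 153, 106 and 148.

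Of the other kinases and degradation factors, Melk and Pbk are kinases whose messages peak in dividing cells. Melk had intensities of 384, 201, 165 and 213 and the smallest difference from 6 h of all members, 1.22-fold. Pbk had 1093, 658, 489.9 and 639. Cdc20, the activator of the anaphase-promoting complex, had 1750.4, 1323, 941 and 1246, and Ube2c, the ubiquitin-conjugating enzyme of that complex, had 1534, 1042, 744 and 943. Cdca3, a cell division cycle associated protein, had 382, 367, 245 and 308, with the lowest 24 h value relative to 6 h of all members (0.839 of it).

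The chromosomal passenger complex corrects faulty attachments of chromosomes and then guides cytokinesis. Its 3 members in this set had the largest group median, -0.69 log2 for 12 h minus 6 h. Aurkb, its kinase, had intensities of 242, 187, 116 and 162 at 0, 6, 12 and 24 h. Birc5, survivin, had 779, 489.6, 301 and 438, and Cdca8, borealin, had 673, 458, 294 and 388. These 3 subunits were 1.61, 1.63 and 1.56-fold lower at 12 h than at 6 h, and all 3 were lower at 24 h than at 6 h. The group median rests on the brightest probe sets. By other probe sets above the filter, 12 h minus 6 h was -0.15 log2 for Aurkb, and -0.58 and -0.26 for Cdca8.

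Genes of chromosome structure were lower at 12 h in 5 of 5. Mki67, the proliferation marker Ki-67 that coats mitotic chromosomes, had intensities of 897, 525, 365 and 601 at 0, 6, 12 and 24 h. Top2a, the topoisomerase that untangles sister chromatids, had 1126, 641, 466 and 724. The condensin core genes Smc2 and Smc4 encode partners in one complex. Smc2 had 524, 559, 396 and 539.5 and Smc4 had 2641, 880.3, 710.4 and 996, so that Smc4 was 3.00-fold lower at 6 h than at 0 h while Smc2 was 1.07-fold higher. Ncapg, a condensin I subunit, had 344, 104, 68.2 and 98.8, and its 12 h value lay just above the brightness filter.

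Midzone and cytokinesis genes closed the set, with 6 of 6 lower at 12 h. Anln, the scaffold anillin of the contractile ring, had intensities of 1278, 731, 444 and 672 and was 1.65-fold lower at 12 h than at 6 h. Prc1, which bundles midzone microtubules, had 496, 428, 293 and 397. The midzone kinesin genes Kif20a and Kif23 had 624, 385, 261 and 340.4 and 296, 192, 130.3 and 176. Racgap1 and Ect2 encode the regulators that switch on RhoA at the cleavage site. Racgap1 had 1079, 300.4, 215 and 268, and Ect2 had 533, 156, 123 and 180.2, which puts both far below 0 h on every insulin array.

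**Figure D2:**
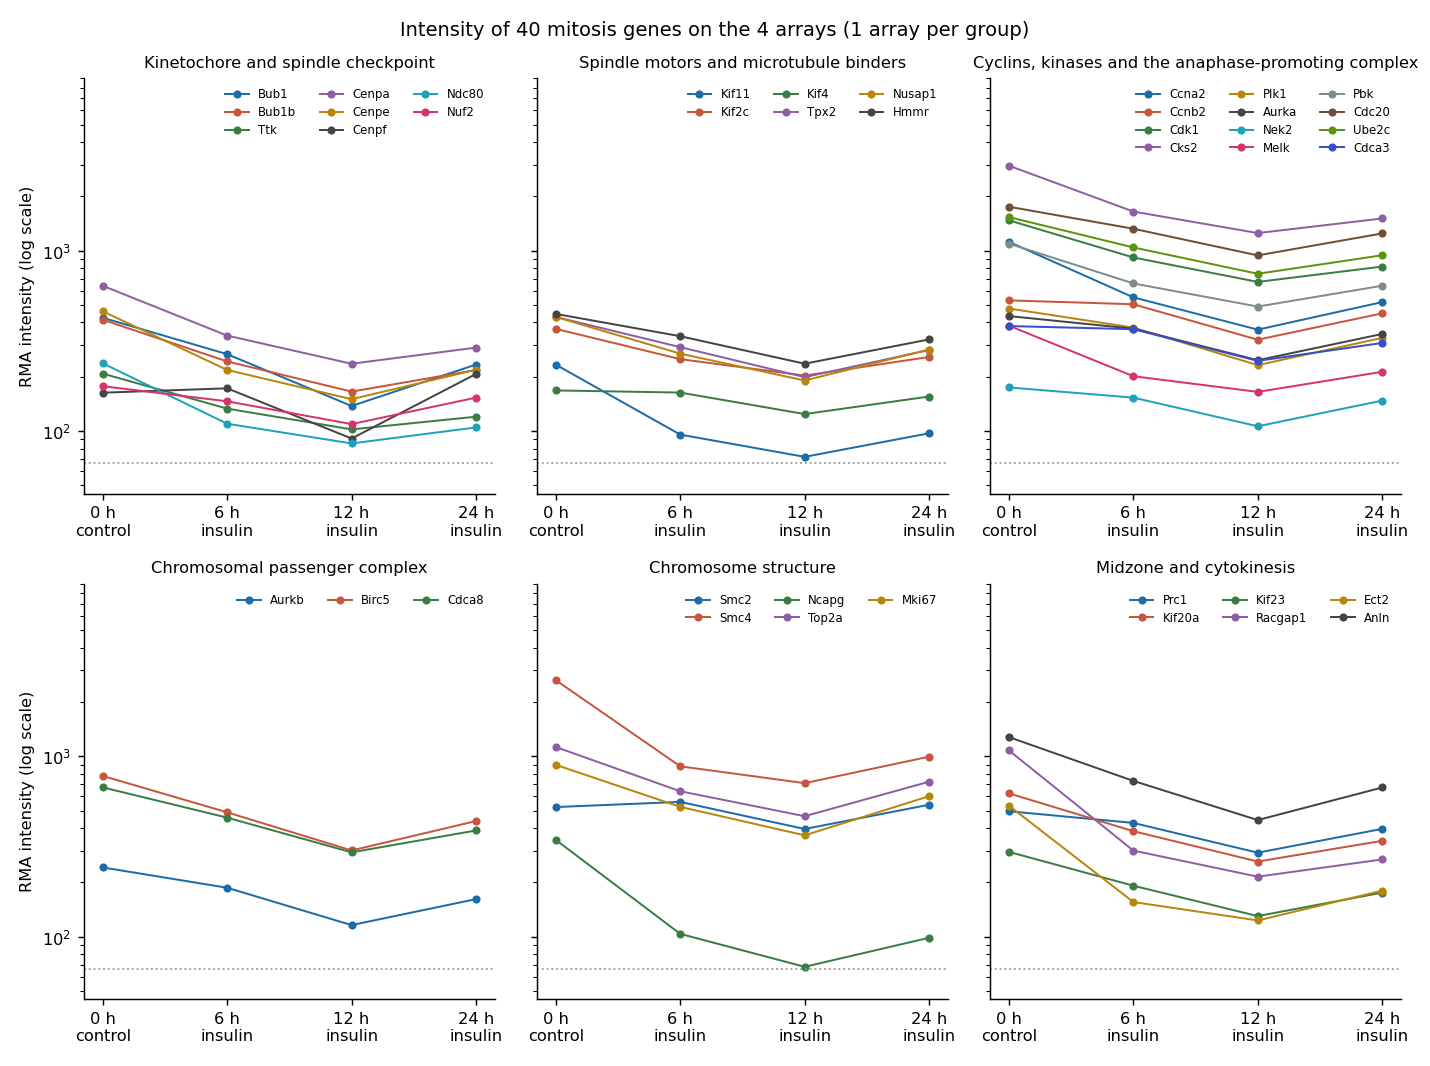
RMA intensity on a log axis for the 40 measured members at 0 h (control) and 6, 12 and 24 h of insulin, 1 array per point, in 6 panels by role; the dotted line is the brightness filter of 66.2. Every line has its lowest insulin value at 12 h, and most lines start highest at 0 h.

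By 24 h the genes were back near their 6 h level, as most genes on these arrays lay close at those times. All 40 members differed between 6 and 24 h by less than the threshold used between insulin arrays, and so did 93.3% of all genes. The 24 h values lay between 0.839 and 1.20 times the 6 h values, with 29 lower and 11 higher by any amount and a median log2 difference of -0.09. Of all genes 50.7% were lower and 49.1% higher. The 5 members furthest above their 6 h level were Cenpf at 1.20-fold, Ect2 at 1.16, Mki67 at 1.15, and Smc4 and Top2a at 1.13 each. Roles differed in this. Of 5 chromosome structure genes 3 were higher at 24 h than at 6 h, with a group median of 0.18 log2, whereas 11 of 12 cyclin and kinase genes and 3 of 3 passenger genes were lower, with medians of -0.11 and -0.21. These groups are small and the difference between them was not tested.

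**Figure D3:**
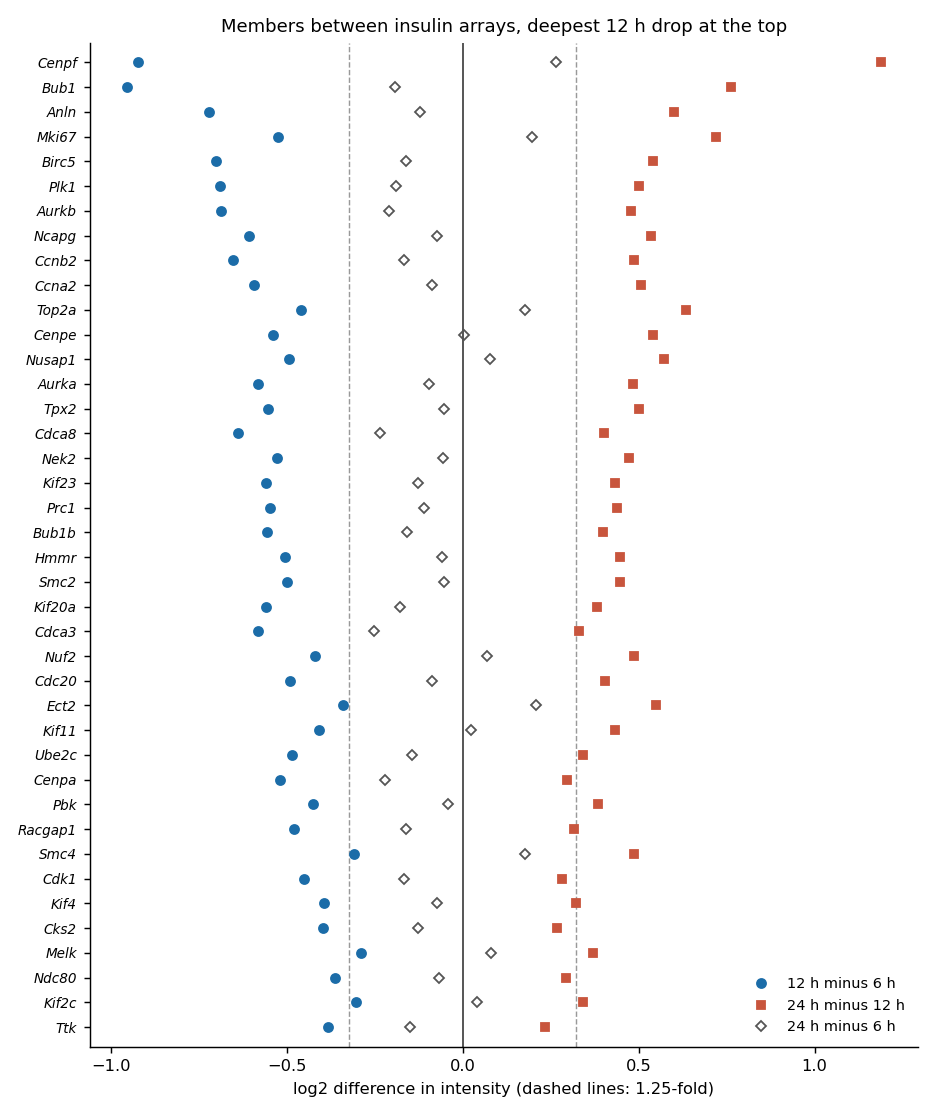
Log2 differences between insulin arrays for each of the 40 members (1 array per time), with 12 h minus 6 h as circles, 24 h minus 12 h as squares and 24 h minus 6 h as open diamonds; dashed lines mark the threshold used between insulin arrays. All circles lie left of 0 and all squares right of it, while the diamonds lie between -0.25 and 0.26.

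Against the control, most mitosis genes were lower on the insulin arrays. At 6, 12 and 24 h 23, 38 and 25 of 40 were at least 1.5-fold lower than at 0 h, against 12.8%, 13.3% and 13.3% of all genes. On all 3 arrays 22 of 40 were so, against 10.5% of all genes. None of the members was at least 1.5-fold higher on all 3 arrays, against 17.0% of all genes. The median log2 differences from 0 h were -0.67, -1.18 and -0.76, where those of all genes were 0.01, 0.03 and 0.00. The 3 differences share the 0 h array.

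Members differed far more in this comparison than in the 12 h drop, as did all genes above the filter. For 6 h minus 0 h the 5th and 95th percentiles of all genes were -0.97 and 1.80 log2. For 12 h minus 6 h they were -0.24 and 0.33. Racgap1 was 3.59, 5.01 and 4.02-fold lower than at 0 h at 6, 12 and 24 h. Ncapg was 3.31, 5.05 and 3.48-fold lower and Ect2 3.42, 4.32 and 2.96-fold. At the other end were Smc2, Cenpf, Kif4, Cdca3 and Ccnb2, whose log2 differences at 6 h were 0.10, 0.08, -0.04, -0.06 and -0.07. At 12 h every member was below 0 h, the nearest being Smc2 at -0.40 log2.

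The 0 h array also stood apart from the insulin arrays in transcripts outside cell division. The Y-linked gene Eif2s3y had intensities of 12.2, 295, 305 and 326 at 0, 6, 12 and 24 h, and Xist, which coats the silenced X, had 109, 1636, 1278 and 1463. Chromosome medians of the log2 difference from 0 h, averaged over the insulin arrays, ran from -0.25 on chromosome 8 to 0.33 on chromosome 4. With each chromosome's median removed, a step added after the data were seen, the members' median at 12 h was -1.28 log2. The part of these features in the members' difference from 0 h was not tested, and what set the 0 h array apart and an effect of insulin cannot be told apart. The comparison among the 3 insulin arrays does not use the 0 h array.

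Markers of cell types were read on the same arrays. Of 8 measured osteoblast markers 5 reached the filter value at 0 h and all 8 on the insulin arrays, and their summed intensity was 35340.4, 55805, 64312.5 and 67838 at 0, 6, 12 and 24 h. Of 13 measured macrophage and osteoclast markers 6, 11, 12 and 12 reached it, and their sum was 3329.8, 18477, 21539 and 24123. Endothelial and lymphoid markers stayed low, with 1 of 8 and 1 of 7 reaching the filter value on each array. The osteoblast markers below it at 0 h were the transcription factor gene Sp7, the alkaline phosphatase gene Alpl and the parathyroid hormone receptor gene Pth1r. Both the osteoblast and the macrophage sums were lowest at 0 h and larger at each later time, with no drop at 12 h. Such sums are weighted to bright genes such as Col1a1, Col1a2 and Lyz1. Of markers above the filter, 0 of 8 osteoblast and 2 of 11 macrophage and osteoclast ones were lower at 12 h than at both neighbours. For all genes this share was 24.4%. The 2 were Cd14 and Ctsk, and Cd14 was highest at 0 h (370, 155, 153 and 162). The markers' part in the mitosis genes' course was not tested.

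**Figure D4:**
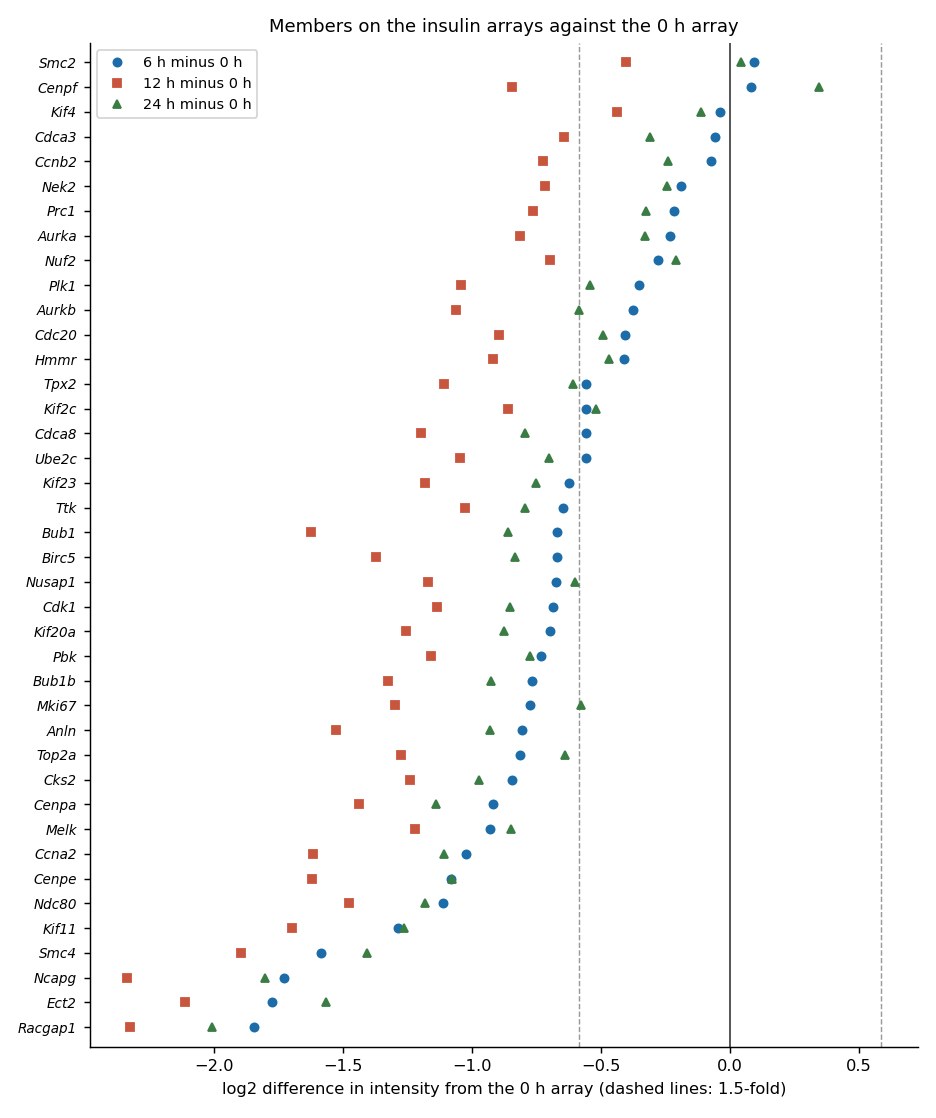
Log2 difference from the 0 h array for each of the 40 members at 6 h (circles), 12 h (squares) and 24 h (triangles), 1 array each, ordered by the 6 h value; dashed lines mark 1.5-fold. Racgap1, Ect2, Ncapg and Smc4 lie lowest, Smc2 and Cenpf highest, and the 12 h square is the leftmost symbol in every row.

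Other probe sets of the same genes gave a second reading on the same arrays. Of 23 further probe sets above the filter, from 14 members, 21 were lower at 12 h than at 6 and 24 h, with medians of -0.42 log2 for 12 h minus 6 h and 0.32 for 24 h minus 12 h. For Ccna2 a further probe set read 1546, 483, 279 and 399 at 0, 6, 12 and 24 h, and for Racgap1 one read 607, 199, 137 and 199. Exceptions were a Kif2c probe set (188, 109.7, 87.0 and 82.7), lowest at 24 h, and a Tpx2 probe set (74.2, 72.7, 72.7 and 67.0), equal at 6 and 12 h. The remaining Tpx2 probe sets above the filter had small drops, with 12 h minus 6 h of -0.18 and -0.05 log2, against -0.55 on the brightest. The first of these (72.4, 103, 91.0 and 95.7) was above its 0 h value on every insulin array. Below the filter 15 of 27 were lower at 12 h than at both neighbours.

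Further genes of mitosis, from a list of 93 symbols that holds no member, showed the drop less uniformly. Of 81 above the filter 57 were lower at 12 h than at both neighbours, 20 of them past the 25% threshold, and 6 were higher than both by any amount. Of all genes 24.4% were lower than both, 0.840% past the threshold, and 4670 of 11661 were higher than both. The list's median 12 h minus 6 h was -0.24 log2 and its median 24 h minus 12 h 0.19. The deepest drop was that of Depdc1a, with intensities of 264, 75.5, 37.7 and 70.9 at 0, 6, 12 and 24 h. Depdc1a passed the filter on its mean over the arrays, but its 12 h value lay below the filter value of 66.2. The size of its drop therefore rests on dim signal and is uncertain. The shugoshin genes Sgo2a (171, 128, 80.2 and 126) and Sgo1 (460.3, 162, 107 and 145) guard the cohesion of centromeres. Cep55, which acts at the last step of cytokinesis, had 446, 180.0, 116 and 171, the spindle pole gene Aspm had 212, 135, 93.5 and 144, and the centromere gene Cenpp had 156, 112, 81.3 and 121. Mis12, of a complex that links the microtubule-binding outer kinetochore to the centromere, went the other way (203, 215, 260.2 and 257), as did Mad2l2 (372, 252, 292 and 286) and the checkpoint gene Mad1l1 (213, 133, 150.0 and 142). Nsl1, a partner of Mis12, had 142, 152, 154 and 140.3.

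DNA replication genes were also lower at 12 h but came back less by 24 h. Of 41 above the filter 37 were lower at 12 h than at 6 h, with a median of -0.27 log2, and 28 were higher at 24 h than at 12 h, with a median of 0.07. Of all genes 42.7% and 41.4% were so. At 24 h 39 of 41 were below their 6 h level, against 29 of 40 mitosis members and 50.7% of all genes. Mcm6, a subunit of the replicative helicase, had intensities of 1664, 503, 329 and 376 at 0, 6, 12 and 24 h, and its partner Mcm5 had 2041, 603, 401 and 458. Ccne2, a cyclin of the entry into S phase, had 179, 136, 81.7 and 106, and the thymidine kinase gene Tk1 had 468, 287, 181 and 235. Uhrf1 had 294, 148, 98.5 and 112, and Pole, the catalytic subunit of a replicative polymerase, had 331, 138, 104 and 133. The initiation gene Cdc6 (244, 76.6, 69.9 and 60.4) was lower at 12 h than at 6 h and lower still at 24 h. The polymerase gene Pold1 (347, 175, 181 and 174) was not lower at 12 h, nor were Gins3 (321, 121, 134 and 122) and Gins4 (1078, 551, 580.4 and 550.0). Of the 41, 3 passed the 25% threshold on both sides, where 0.840% of all genes did.

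Regulators of G1 had small differences at 12 h. Of 22 G1 cyclins, kinases, CDK inhibitors and pocket protein partners above the filter 10 were lower at 12 h than at both neighbours, where 24.4% of all genes were, and 0 passed the 25% threshold, with a median 12 h minus 6 h of -0.05 log2. The inhibitor genes Cdkn1b (994, 346, 292 and 362), Cdkn2c (1628, 818, 746 and 893) and Cdkn2a (178, 112, 104 and 128) had small drops, as did Lin52 (73.9, 85.6, 70.1 and 79.7) and Lin54 (386, 204, 174 and 206), subunits of the DREAM complex. The pocket protein genes Rb1 (341, 573, 733 and 765) and Rbl2 (379.5, 279, 349 and 370.0) were higher at 12 and 24 h than at 6 h, and Rbl1 had 259.6, 143, 122 and 126. Cdkn2b had 2223, 1960.3, 2178 and 1945, and E2f4 had 219, 177, 175 and 141.

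**Figure D5:**
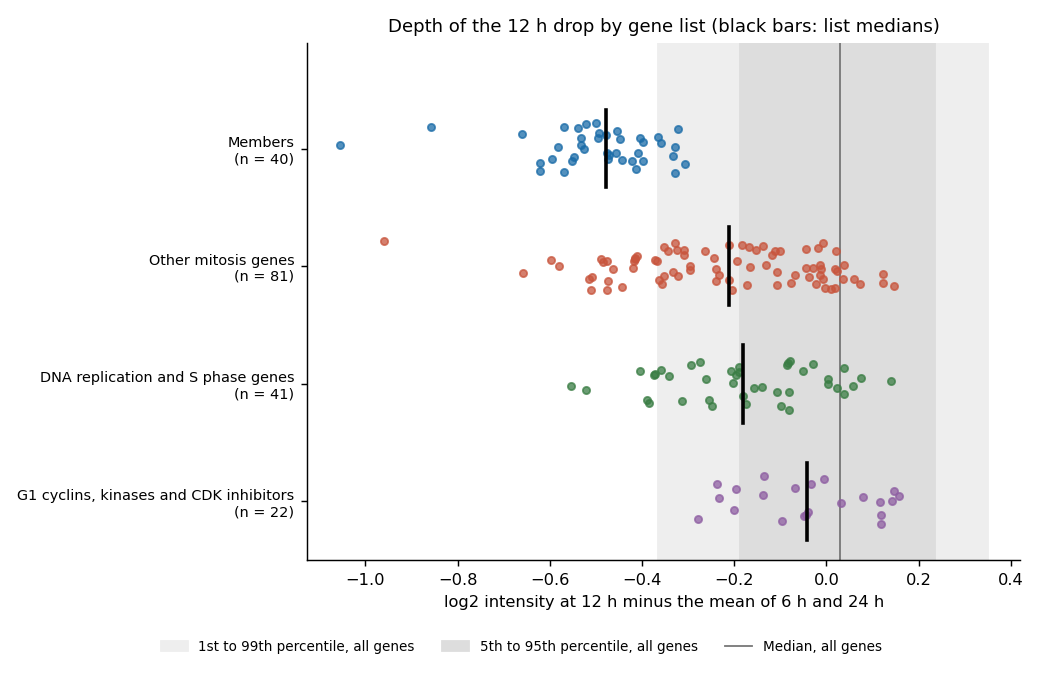
Log2 intensity at 12 h minus the mean of 6 and 24 h for each gene of 4 lists (points; vertical jitter is only for display), with list medians as black bars and the spread of all genes above the filter in grey. The members' median is -0.48, those of the other mitosis, DNA replication and G1 lists are -0.21, -0.18 and -0.04, and that of all genes is 0.03.

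Signal was close on the insulin arrays, as was RNA integrity by Gapdh, but less so by Actb. The array medians of intensity ranged from 64.97 to 65.75. The log2 ratio of 3′ to 5′ control probe sets, which grows as RNA degrades, was -0.05, -0.01 and 0.04 for Gapdh at 6, 12 and 24 h and 0.33, 0.50 and 0.48 for Actb. At 0 h they were -0.16 and 0.37, so that the Actb ratio was highest at 12 h. The part of this in the 12 h drop was not tested.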

How the data were processed

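The submitters' processing notes name RMA, and the deposited values hold 1 intensity per probe set and array. The sources used here give no version of RMA. The deposited intensity values ran from 7.34 to 31292 and were read as linear, and log2 was taken. Differences of dim probe sets may be understated, which was not tested here, and having 1 array per group limits the precision. The table holds 45101 probe sets, 64 of them controls. By the annotation, which can be old, 34945 others have 1 symbol, 932 have several, and 9160 have none in the tables used here. Where a gene had several probe sets, the one brightest on average over the arrays (mean log2) stood for it. Older list symbols were updated through RefSeq synonyms. A member counted as lower at 12 h when below both 6 and 24 h, by any amount or with both neighbours at least 25% higher; 1.5-fold was used against 0 h.

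All 41 members are named, and of each pathway list up to 6 genes with the largest drop and 4 with the largest rise at 12 h. Members, lists, thresholds and tests were chosen with earlier results of these data known. Alternatives were other filters, scalings, probe set rules, thresholds and means. Promoter windows are RefSeq's (GRCm38.p6). The counting step was tested on simulated data. Python 3.11.15, numpy 2.4.6, pandas 2.3.3, statsmodels 0.14.6 and matplotlib 3.10.9 were used.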

Additional observations from a re-analysis of the deposited data

Results flagged for a closer look

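Cenpf was picked out because it stood on opposite sides of the 0 h array at different times, by more than the threshold used between insulin arrays each way. Its log2 difference from 0 h was -0.84 at 12 h and 0.34 at 24 h, which are 1.19 apart. This rests on 1 probe set. On the other Cenpf probe sets, both below the brightness filter, the 24 h value was below 0 h, by log2 differences of -0.05 and -0.10. With 1 array per time this difference was not tested.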

How the results depend on the processing

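Across 79 recalculations 69 stayed within 0.1 log2 or 1.5 times of the reported value, 10 moved further and none reversed. Without a brightness filter, or with a mean intensity of at least 100, the same 40 members stood on the same probe sets. Under these other filters the members' values could not move, so their place among the 69 says nothing on stability. With the mean of all probe sets 32 members passed the filter; 24 h minus 12 h was then 0.34 log2, the differences from 0 h were -0.52, -1.02 and -0.62, 18 members passed the 25% threshold at 12 h, and 13 were 1.5-fold lower than 0 h throughout. Of the members' further probe sets 27 lay below the filter. With suffixed probe sets left out, 27 members were measured above the filter and 20 passed the 25% threshold. At 1.5-fold 3 members passed against both neighbours, and at 2-fold 8 were lower than 0 h throughout. Removal of chromosome medians, added after the data were seen, gave -1.28 log2 at 12 h minus 0 h. Median centring, quantile normalization and removal of a lowess curve left the counts and medians within those limits, and in each of these 3 all 40 members were lower at 12 h than at both neighbours. Signal near background limits dim members such as Ncapg at 12 h.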

Other observations

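Of the 98 genes at least 25% higher at both 6 and 24 h than at 12 h, 44 were in none of the lists. The genes named here were chosen after their values were seen. Several are known from dividing cells. Cdkn3, a phosphatase acting on CDKs, had intensities of 118, 178, 93.1 and 149 at 0, 6, 12 and 24 h. Pclaf, a PCNA-binding factor, had 1487, 933, 554 and 852, and Stmn1, the microtubule regulator stathmin, had 3909, 2698, 1861 and 2521. The chromatin protein genes Hmgb2 (2321, 377, 263 and 361) and Hmgb3 (393, 305, 201 and 301) had the same course among insulin arrays.

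Others in this set are not cell cycle genes. Mcpt8, a protease of basophils, had 33.9, 1262, 509 and 813 and the second deepest drop of all genes. The chemokine genes Ccl11 (31.1, 241, 124 and 179) and Ppbp (51.2, 174, 99.3 and 146) also had their lowest insulin value at 12 h. In the opposite direction 63 genes were at least 25% higher at 12 h than at both neighbours, and none of them was in any list used here.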
